A study of Rattus norvegicus with 232 samples.

Results

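The genes described here encode 10 precursors of neuropeptides that are made by neurons of the hypothalamus: Avp, Oxt, Hcrt, Pmch, Agrp, Cartpt, Gal, Ghrh, Gnrh1 and Nts. They were chosen by name, with earlier results of these data known, as genes whose brain level could vary with the amount of hypothalamus in a sample or with the strain of the rat. All 10 were found among the 20859 genes of the RefSeq gene table. Total RNA depleted of ribosomal RNA was sequenced from whole brain of untreated rats of the Hybrid Rat Diversity Panel (HRDP), for which the design gives naive males, although part of the sample labels state no sex. The table held 197 animals of 74 inbred strains, of which 54 strains had 3 animals, 15 had 2 and 5 had 1. There were 88 animals of 30 strains of the HXB/BXH recombinant inbred panel, which descends from BN-Lx/Cub and SHR/OlaIpcv, 43 animals of 19 strains of the FXLE/LEXF recombinant inbred panel, and 66 animals of 25 other inbred strains, progenitors included. Animals of an inbred strain share nearly all of their genotype, so that differences between animals of a strain are mostly not genetic. The paper states for its strains that the brain was cut along the midline and RNA came from a single side.

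The hypothalamus is a small region at the base of the forebrain that governs water balance, feeding, growth, reproduction, sleep and stress. Its peptide neurons lie in compact nuclei, and each class is small in number but makes its precursor RNA at a high rate. Magnocellular neurons of the paraventricular and supraoptic nuclei make vasopressin (Avp) or oxytocin (Oxt) and release them from the posterior pituitary. Neurons of the lateral hypothalamus make orexin (Hcrt), which sustains wakefulness, or melanin-concentrating hormone (Pmch), which promotes feeding and sleep. Arcuate neurons make the appetite-stimulating Agouti-related peptide (Agrp), the appetite-suppressing CART peptide (Cartpt) or growth hormone-releasing hormone (Ghrh), and scattered preoptic neurons make gonadotropin-releasing hormone (Gnrh1). Galanin (Gal) and neurotensin (Nts) are made in the hypothalamus and in many other brain regions, and Cartpt is also widely expressed.

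RefSeq promoters, 250 bases before to 50 bases after the start of the gene on build GRCr8, were matched to 8 of the 10 genes and not to Pmch and Gnrh1. The promoters of Avp, Oxt, Hcrt and Cartpt are shown because the first 3 of these genes varied together most closely between animals and Cartpt had the highest correlation with hypothalamic genes after Pmch. Avp and Oxt are neighbours on chromosome 3 on opposite strands, with 12669 bases between the windows, whereas Hcrt lies on chromosome 10 and Cartpt on chromosome 2. Capitals mark matches on either strand to the core of a cAMP response element, an E-box, a core of nuclear receptor sites or a TATA box.
Avp promoter, chr3:138248473-138248772, minus strand: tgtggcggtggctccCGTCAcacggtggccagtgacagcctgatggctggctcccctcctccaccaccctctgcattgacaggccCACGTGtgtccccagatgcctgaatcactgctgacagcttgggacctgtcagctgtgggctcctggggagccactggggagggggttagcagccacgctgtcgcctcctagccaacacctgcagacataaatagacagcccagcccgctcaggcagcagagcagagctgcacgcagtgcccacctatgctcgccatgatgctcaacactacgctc
Oxt promoter, chr3:138235504-138235803, plus strand: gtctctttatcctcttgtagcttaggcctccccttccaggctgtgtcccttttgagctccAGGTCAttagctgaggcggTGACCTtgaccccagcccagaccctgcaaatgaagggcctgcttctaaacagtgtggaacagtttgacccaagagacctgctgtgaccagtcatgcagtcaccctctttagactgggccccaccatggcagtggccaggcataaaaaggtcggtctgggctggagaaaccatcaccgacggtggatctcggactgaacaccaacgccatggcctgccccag
Hcrt promoter, chr10:86191475-86191774, minus strand: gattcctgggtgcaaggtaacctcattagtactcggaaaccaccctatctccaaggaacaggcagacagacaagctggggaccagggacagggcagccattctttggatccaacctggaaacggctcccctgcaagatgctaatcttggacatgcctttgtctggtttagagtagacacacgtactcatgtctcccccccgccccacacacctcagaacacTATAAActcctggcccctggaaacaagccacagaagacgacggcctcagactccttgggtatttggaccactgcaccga
Cartpt promoter, chr2:32991186-32991485, minus strand: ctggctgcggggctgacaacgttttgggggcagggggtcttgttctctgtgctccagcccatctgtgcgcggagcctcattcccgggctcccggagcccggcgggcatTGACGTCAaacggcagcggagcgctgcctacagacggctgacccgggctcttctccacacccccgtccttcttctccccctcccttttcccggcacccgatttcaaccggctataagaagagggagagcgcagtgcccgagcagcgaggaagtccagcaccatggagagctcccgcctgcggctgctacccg
The core of the cAMP response element, TGACG, had 1 match in the Avp window and 2 in that of Cartpt, which overlap on opposite strands, and was present in 21.2% of all 33469 promoters. The E-box CACGTG had 1 match, in Avp, and was present in 6.42% of all promoters. The nuclear receptor core AGGTCA had 2 matches in Oxt and was present in 16.2% of all promoters. The TATA box letters TATAAA had 1 match in Hcrt and were present in 14.2%. The matches describe these letters and not sites of binding, and no motif was shared by Avp, Oxt and Hcrt.

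The values are read as log2. For an earlier release the study names a regularized log transformation, which pulls genes with few reads towards their mean, so that a difference of a low gene may be understated, and whether it was applied to this table is not given in the sources used here. Depth is unknown because no counts were used. The medians of the 214 libraries lay between 8.18 and 8.42. Repeat libraries of an animal were averaged. By the labels, the libraries of this table came from 17 sequencing batches, and 62 strains had animals in several batches. The 3 animals labelled LEW/Crl had the Y-linked genes Eif2s3y at 9.37 to 9.55 and Kdm5d at 9.57 to 9.64, and the animal HXB17/Ipcv 2 had them at 9.07 and 9.32, while HXB1/Ipcv 2, next in order, had 10.01 and 10.21. The animal labelled LE/Stm 2 had albumin (Alb, a liver gene) at 23.18, against at most 17.23 in the other animals. These 4 animals of LEW/Crl and LE/Stm had values of every member inside the range of the other animals. Every count of members called below in the gene table was the same without them, and without HXB17/Ipcv 2 it was the same except for the strain deviations of Agrp.

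**Figure D1:**
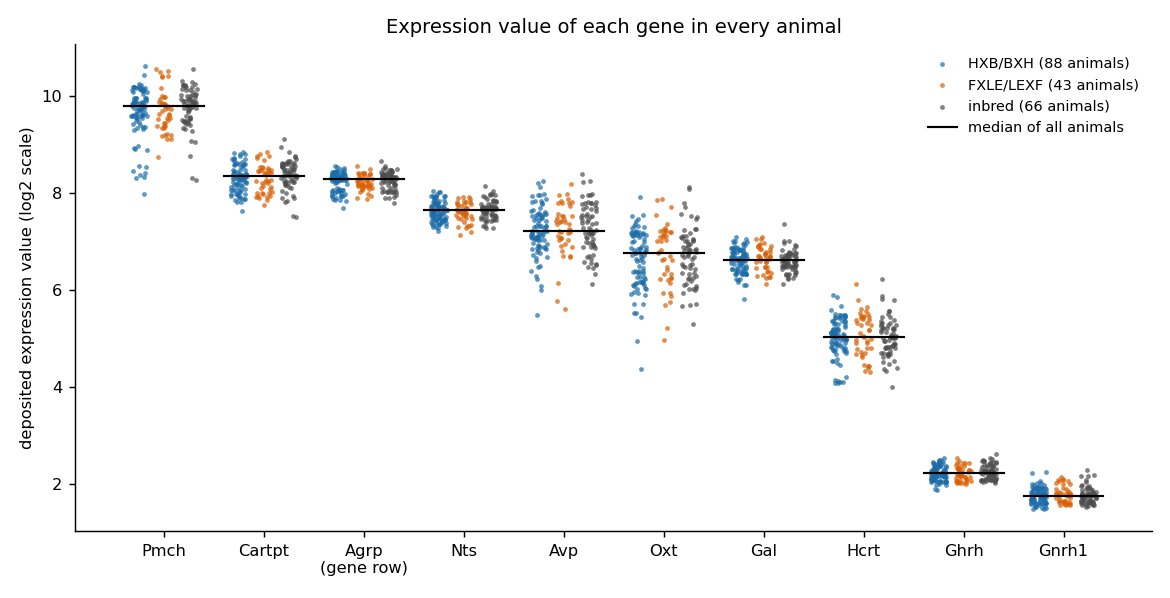
Deposited log2 expression value (vertical axis) of the 10 genes in each of the 197 animals, coloured by panel, with the median of all animals as a black line. Pmch had the highest median (9.79) and Gnrh1 the lowest (1.75), and the 3 panels overlapped for every gene.

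Of the magnocellular hormones, Avp had 5.50 in the lowest animal, 7.23 at the median and 8.40 in the highest. Oxt ran from 4.37 over 6.77 to 8.12. The range over animals was the widest for Oxt among the 10 genes, followed by that of Avp. Of the lateral hypothalamic genes, Pmch ran from 7.98 over 9.79 to 10.62 and Hcrt from 4.01 over 5.04 to 6.23. Cartpt ran from 7.51 over 8.35 to 9.11, Gal from 5.83 over 6.63 to 7.37 and Nts from 7.14 over 7.65 to 8.15. Ghrh stayed between 1.88 and 2.63 with a median of 2.22, and Gnrh1 between 1.48 and 2.30 with a median of 1.75. Both are near the bottom of the table, since 8.57% of all genes had a mean at or below that of Ghrh and 5.61% at or below that of Gnrh1. The within-strain standard deviation (SD) over animals was 0.58 for Oxt, 0.51 for Avp, 0.50 for Pmch and 0.43 for Hcrt, against a median of 0.16 over all genes. It was 0.26 for Cartpt, 0.22 for Gal, 0.17 for Nts, 0.16 for Gnrh1 and 0.14 for Ghrh. The 4 genes of the magnocellular and lateral hypothalamic neurons thus had the largest SDs of the 10 genes in this table. In the transcript table, where the SD was taken over all animals, it was 1.27 for Ghrh, 1.19 for the coding transcript of Agrp and 1.11 for Gnrh1, against 1.09 for Oxt, 0.88 for Avp, 0.81 for Hcrt and 0.69 for Pmch. The values are not scaled for gene length, so levels were not ranked between genes.

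The row labelled Agrp did not follow the RNA of the peptide precursor. It stood at a mean of 8.25, with a lowest animal of 7.70, a median of 8.29 and a highest of 8.66. Its correlation over animals with the coding transcript NM_033650.1 in the RefSeq transcript table was -0.11, and with the non-coding transcript XR_005496618.1 it was 0.99. These r describe rows that share libraries and reads, and were not tested. The non-coding transcript had a mean of 8.16, and the coding transcript had a mean of 2.24, with a lowest animal of -0.64, a median of 2.50 and a highest of 4.40. For the other 9 genes, the r of the gene row with the coding transcript was 0.92 to 1.00, except for 0.54 in Ghrh and 0.59 in Gnrh1. Values of Agrp are therefore given below for the gene row, so named, and for the coding transcript apart.

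**Figure D2:**
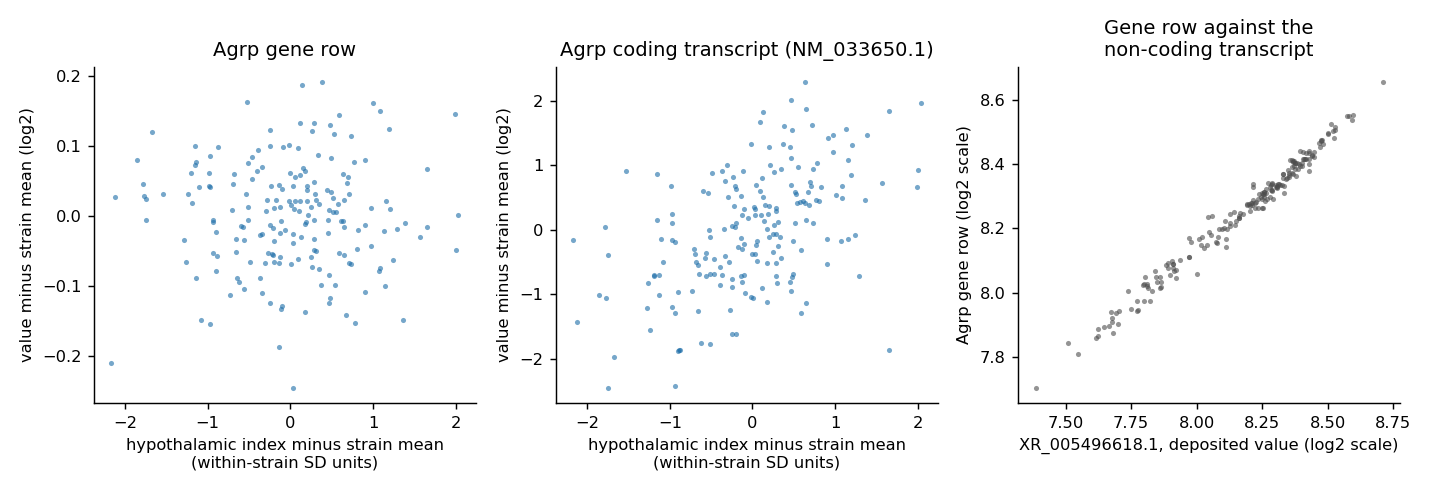
Agrp gene row (left) and coding transcript NM_033650.1 (middle) as deviations from the strain mean in log2 units, against the hypothalamic index as a deviation from its strain mean in within-strain SD units, in 192 animals. The right panel plots the Agrp gene row against XR_005496618.1 on the log2 scale in 197 animals (r = 0.99), and the slope on the index was 0.00 for the gene row and 0.58 for the coding transcript.

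The first comparison asked whether the members varied together with other genes of the hypothalamus between animals of a strain. An index was formed as the mean of the standardized values of 14 genes that mark hypothalamic tissue, such as Sim1, Otp, Nkx2-1 and Fezf1 (transcription factors of its development), Hdc (histamine synthesis), Irs4 and Ghsr (the ghrelin receptor). No member was in the index, and 2 of the 16 genes of the list, Rax and Hmx3, had no row in the table. The index was scaled so that 1 unit was 1 within-strain SD. Its genes had equal weight, and the means of Hmx2 (0.72), Six6 (1.33), Nkx2-4 (2.01) and Otp (2.10) were below that of Ghrh (2.23). The within-strain r of a gene with the index that contains it was lowest for Nkx2-1 (0.27) and Ghsr (0.35). It was highest for Calcr and Irs4 (both 0.85). In limma with strain as a factor, and with adjustment by Benjamini-Hochberg to a 5% false discovery rate (FDR) over 20845 genes, 8 of the 10 members rose with the index and none fell. Among all genes, 4.40% rose with the index and 4.19% fell, 8.59% in all. The members and the index genes were chosen with earlier results of these data known. The count of members that rose is therefore not an independent test. In bulk tissue fewer cells of a type and less RNA per cell cannot be told apart. Most animals had a single library. Variation between animals and variation between libraries of an animal, described below, therefore cannot be told apart in these slopes.

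Oxt had the steepest slope, 0.39 ± 0.04 log2 units (SE) per SD of the index (adjusted p = 1.05e-14), and 137 of the 192 animals in strains of 2 or more animals lay on the same side of their strain mean for Oxt and for the index. Pmch followed with 0.37 ± 0.03 (adjusted p = 8.05e-19), with 156 of 192 animals on the same side. Avp rose by 0.31 ± 0.04 (adjusted p = 3.81e-11), with 128 animals on the same side, and Hcrt by 0.28 ± 0.03 (adjusted p = 1.59e-13), also with 128. Cartpt rose by 0.19 ± 0.02 (adjusted p = 1.20e-16) and Gal by 0.14 ± 0.02 (adjusted p = 2.32e-11). The low-expressed Ghrh rose by 0.05 ± 0.01 (adjusted p = 7.26e-04) and Gnrh1 by 0.04 ± 0.01 (adjusted p = 0.0376). Nts had a slope of 0.03 ± 0.01 (adjusted p = 0.193) and the Agrp gene row of 0.00 ± 0.01 (adjusted p = 0.973), and neither passed the test. The call of Ghrh was lost without animal 1 or 3 of each strain, and kept without animal 2 and with batch covariates. That of Gnrh1 was lost without animal 1, 2 or 3. Ghrh had a slope of 0.034 without animal 1 of each strain (adjusted p = 0.612) and of 0.039 without animal 3 (adjusted p = 0.153). Gnrh1 had slopes of 0.042, 0.047 and 0.036 without animal 1, 2 or 3 (adjusted p = 0.628, 0.223 and 0.270). With batch covariates Gnrh1 had slopes of 0.051 (adjusted p = 0.0543) and 0.054 (adjusted p = 0.0651). In the v6 table of Ensembl genes the Gnrh1 row had a slope of -0.0706 (adjusted p = 0.0162). Its mean there was 5.94, against 1.78 in the RefSeq table, and whether both rows hold the same RNA was not tested. The Agrp rows of the v6 and v5 tables, with means of 3.34 and 3.44, rose with the index by 0.13 ± 0.02 (adjusted p = 2.48e-09) and 0.05 ± 0.01 (adjusted p = 1.08e-04). In the transcript table the coding transcript of Agrp rose by 0.58 ± 0.09 (adjusted p = 2.39e-06). There 7 of the 10 members rose, against 1.57% of 45991 transcripts, and the slopes of Avp (0.55 ± 0.06), Oxt (0.67 ± 0.07), Hcrt (0.54 ± 0.06), Cartpt (0.31 ± 0.03) and Gal (0.21 ± 0.02) were over 1.5 times those of the gene table. Ghrh (0.35 ± 0.11, adjusted p = 0.0524), Gnrh1 (0.24 ± 0.10, adjusted p = 0.172) and Nts (0.05 ± 0.02, adjusted p = 0.188) were not called there, with slopes that were also over 1.5 times those of the gene table.

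**Figure D3:**
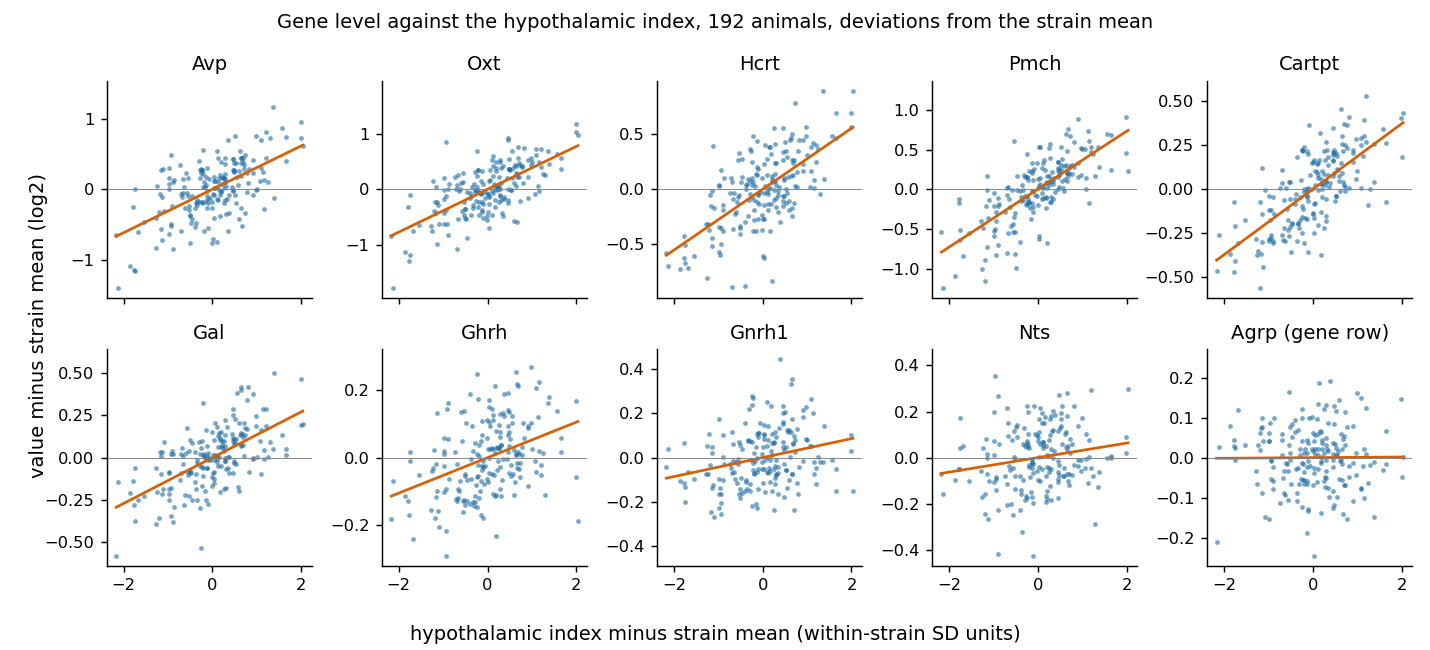
Deviation of each gene from its strain mean (vertical axes, log2, scaled per gene) against the deviation of the hypothalamic index from its strain mean (horizontal axis, within-strain SD units) for 192 animals, with the limma slope as a line. The slope was steepest for Oxt (0.39) and Pmch (0.37) and near 0 for the Agrp gene row.

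The within-strain Pearson r with the index was 0.73 for Pmch, 0.70 for Cartpt, 0.67 for Oxt, 0.65 for Hcrt, 0.61 for Gal and 0.60 for Avp over 192 animals. Spearman rho was 0.74, 0.70, 0.61, 0.58, 0.60 and 0.51 in the same order. A permutation test within strains gave p = 1e-05 for each of these r and rho, which is the smallest that 100000 permutations can give. For Ghrh r was 0.39 (permutation p = 2e-05) and rho 0.40 (permutation p = 4e-05), and for Gnrh1 r was 0.27 (permutation p = 0.00151) and rho 0.28 (permutation p = 0.00124). Nts had r of 0.19 (permutation p = 0.029) and rho of 0.19 (permutation p = 0.0249), and the Agrp gene row r of 0.01 (permutation p = 0.932) and rho of -0.03 (permutation p = 0.713). These are 10 relations with raw p-values, and the calls are those of limma. Without the 2 animals farthest from the median of the index, r was 0.72 for Pmch, 0.69 for Cartpt, 0.65 for Oxt, 0.63 for Hcrt, 0.60 for Gal and 0.58 for Avp. It was 0.37 for Ghrh, 0.28 for Gnrh1, 0.17 for Nts and -0.03 for the Agrp gene row.

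Some genes of the lists for other tissues and brain regions moved with the index. Of 8 pituitary genes 3 had a row, and Cga (the shared subunit of the glycoprotein hormones) rose by 0.50 ± 0.08 (adjusted p = 2.84e-06) and Lhb (a subunit of luteinizing hormone) by 0.05 ± 0.02 (adjusted p = 0.0449). The mean level of the 3 measured pituitary genes ran from 2.61 to 4.55 over animals. Of 4 measured brainstem monoamine genes 2 rose, the serotonergic genes Slc6a4 (0.29 ± 0.06, adjusted p = 3.99e-04) and Tph2 (0.22 ± 0.05, adjusted p = 0.00399), with a mean level of the list from 5.12 to 7.50. Of 3 thalamic genes Tcf7l2 (0.08 ± 0.02, adjusted p = 0.00106) and Lef1 (0.05 ± 0.02, adjusted p = 0.0278) rose, with a mean level from 9.27 to 10.30. The cerebellar gene Cbln1 had a slope of -0.08 ± 0.03 (adjusted p = 0.0457), the only one of 4 cerebellar genes called, and the mean level of that list ran from 9.72 to 11.37. Of 5 general brain genes, Mbp of myelin and Gfap of astrocytes rose (both 0.05 ± 0.02, adjusted p = 0.0373 and 0.0350). No slope of a cortical, striatal, choroid plexus, olfactory bulb, hindbrain, liver, blood or Y-linked gene of the lists was called. The part of these tissues in the slopes of the members was not tested.

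The second comparison asked whether the members were correlated with each other between animals of the same genotype. Of 45 pairs, 20 were called in both directions of the fit by limma at 5% FDR over 20858 genes, each with a positive slope. The pairs with Agrp are those of its gene row, which follows the non-coding transcript. Of these the pair with Nts is in the 20. Avp and Oxt had the highest correlation, with a within-strain r of 0.85 and rho of 0.82. Hcrt was correlated with Avp (r = 0.70, rho = 0.67), with Oxt (r = 0.70, rho = 0.68) and with Pmch (r = 0.70, rho = 0.66). Pmch was correlated with Cartpt (r = 0.64, rho = 0.64), and Cartpt with Gal (r = 0.62, rho = 0.60). The within-strain permutation p was 1e-05 for each r and rho of these 6 pairs, the smallest possible, and the adjusted p of limma was at most 6.19e-11. Leaving out the 2 animals farthest from the median changed no r of the 45 pairs by more than 0.06. The correlations of Avp, Oxt and Hcrt among themselves thus exceeded those of Avp with Pmch (r = 0.54, rho = 0.48), Cartpt (r = 0.44, rho = 0.40) and Gal (r = 0.47, rho = 0.45) in value, which was not tested. The permutation p of these last 3 was 1e-05, and 2e-05 for the rho of Avp with Cartpt.

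The members share this co-variation with many other genes. Within strains 20.6% of genes rose with Avp, 18.4% with Oxt, 12.2% with Hcrt, 14.2% with Pmch, 7.44% with Cartpt and 13.6% with Gal. Another 15.7% rose with Nts, 9.82% with the Agrp gene row, 0.192% with Ghrh and 0 with Gnrh1. Rising and falling genes together were 38.8% with Avp, 35.3% with Oxt, 23.2% with Hcrt and 26.2% with Pmch. They were 15.3% with Cartpt, 26.8% with Gal, 29.8% with Nts, 21.3% with the Agrp gene row and 0.278% with Ghrh. With the hypothalamic index they were 8.59%. With Gnrh1 limma called 0 genes in either direction, and 1833 had an unadjusted p below 0.05. Of the other 9 members, 6 rose with Avp, 7 with Oxt and with Hcrt, and 8 with Pmch, Cartpt and Gal. For Nts 4 rose, and 1 each for Ghrh and the Agrp gene row. The Agrp gene row rose with Nts alone of the members (r = 0.34, rho = 0.30, permutation p = 9e-05 and 4.3e-04). In the transcript table the coding transcript of Agrp rose with Avp by 0.46 (adjusted p = 0.00637), with Oxt by 0.42 (adjusted p = 0.00421), with Hcrt by 0.58 (adjusted p = 9.74e-04) and with Pmch by 0.65 (adjusted p = 0.00176) log2 units per unit of the other gene.

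Among genes with a mean above the median, those most like Avp and Oxt within strains were Celf6 (r = 0.66 with Avp and 0.69 with Oxt), a splicing factor gene, and Baiap3 (0.66 and 0.68), which acts in dense-core vesicle traffic. The third was the imprinted Nnat for Avp (0.61) and the secreted peroxidase gene Gpx3 for Oxt (0.59). For Hcrt they were Pmch (0.70), Baiap3 (0.67) and Celf6 (0.65). Pmch was most like Gpr165 (0.69), Zcchc12 (0.69) and Ahi1 (0.68), and Cartpt most like Zcchc12 (0.69), Pmch (0.64) and Gpr165 (0.60). Gal was most like Resp18 (0.63), an endocrine secretory protein gene, Cartpt (0.62) and Nnat (0.58). Ghrh was most like Ass1 (0.44), Zcchc12 (0.42) and Cartpt (0.42). Gnrh1 had lower values, with Renbp at 0.35, Iscu at 0.32 and Frmd8 at 0.29. Nts was most like Itpa (0.58), Sec11a (0.58) and Nipsnap3b (0.57), and the Agrp gene row most like Ldah (0.47), Rpl23a (0.47) and Atp6v1d (0.46). These r over 192 animals were the criterion of choice and carry no test.

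**Figure D4:**
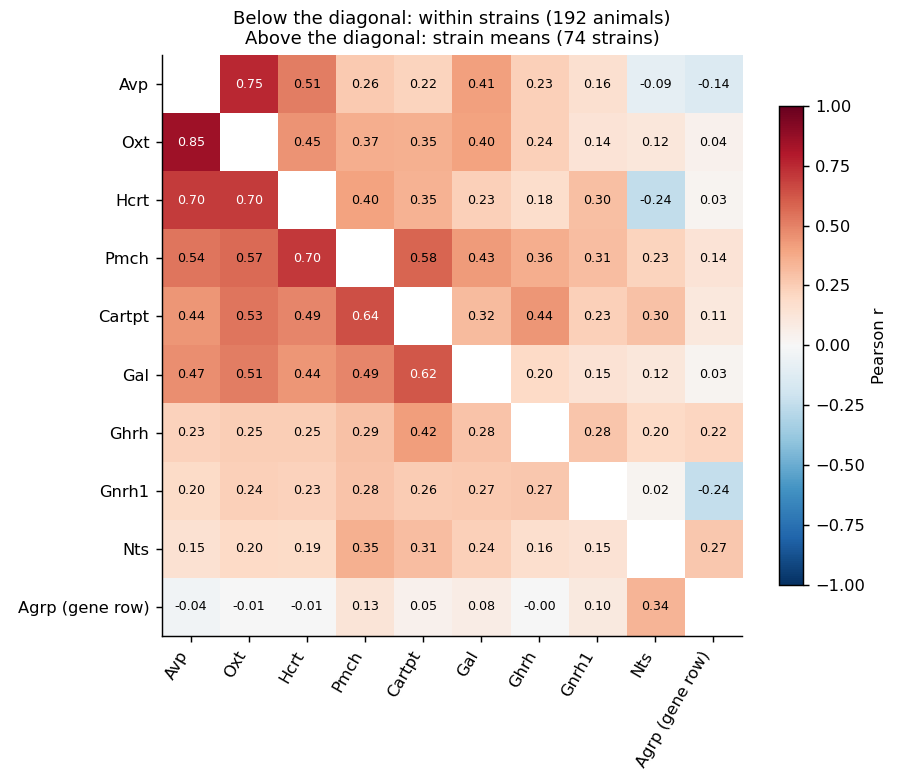
Pearson r of the 45 pairs of genes, below the diagonal for deviations from the strain mean in 192 animals and above it for the means of 74 strains. Avp and Oxt had the highest r in both triangles (0.85 and 0.75), and the Agrp gene row was near 0 with Avp, Oxt and Hcrt within strains.

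Over strain means Avp and Oxt again had the highest correlation, with r of 0.75 and rho of 0.76 over 74 strains (permutation p = 1e-05 for both, the smallest possible), and r of 0.74 without the 2 farthest strains. For Pmch and Cartpt r was 0.58 and rho 0.60 (permutation p = 1e-05 for both), and r was 0.60 without the 2 farthest strains. For Avp and Hcrt r was 0.51 (permutation p = 1e-05) and rho 0.47 (permutation p = 3e-05), and r was 0.47 without the 2 farthest strains. For Hcrt and Pmch r was 0.40 (permutation p = 2.5e-04) and rho 0.41 (permutation p = 2.9e-04), and for Cartpt and Gal r was 0.32 (permutation p = 0.00544) and rho 0.31 (permutation p = 0.00803), with r of 0.47 and 0.28 without the 2 farthest strains. The median r of the 45 pairs, those of the Agrp gene row included, was 0.27 within strains and 0.23 over strain means. Strain means of few animals carry the variation of those animals, so these values are not independent of the within-strain ones. The permutations exchanged means freely between strains and took no account of the relatedness of strains, so these permutation p-values may be too low.

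Over strain means, the genes most like Avp were again Celf6 (0.61) and Baiap3 (0.59), followed by Spint2 (0.50), and Oxt was most like Celf6 (0.49), Spint2 (0.45) and Nme3 (0.45). Hcrt was most like Baiap3 (0.55), Naa38 (0.54) and Vat1 (0.50). Pmch was most like Ahi1 (0.69) and the imprinted genes Usp29 (0.64) and Impact (0.62), and Cartpt most like Dchs2 (0.62), Pmch (0.58) and Htr7 (0.57). Gal was most like Auh (0.53), Fuom (0.49) and Uqcc3 (0.47), Ghrh most like Cartpt (0.44), Nnat (0.44) and Nol3 (0.43), and Gnrh1 most like Pnma3 (0.53) and Mturn (0.47). Nts was most like Gtdc1 (0.65), Neurod6 (0.64), a transcription factor of cortical excitatory neurons, and Cebpzos (0.63). The Agrp gene row was most like Cyb5b (0.75), Lcat (0.59) and Cbfb (0.58). These values over 74 strains are descriptions with no test.

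The repeat libraries of SHR/OlaIpcv show how much of such variation is found within an animal. Animal 1 of this strain had 12 libraries, each in another sequencing batch. Whether they were made from the same RNA preparation is not given in the sources used here. Over these 12 libraries Oxt ran from 5.49 over 6.45 to 7.35, Avp from 6.22 over 7.19 to 7.59 and Hcrt from 4.49 over 5.22 to 5.56. The SD over libraries was 0.64 for Oxt, 0.43 for Avp and 0.36 for Hcrt, beside within-strain SDs over animals of 0.58, 0.51 and 0.43. In animal 1 the spread of these 3 genes between libraries was thus of the size of the spread between animals of a strain. In animal 4, described below, the SD of Hcrt over libraries was lower, at 0.19. Pmch differed, with an SD over the 12 libraries of 0.25 beside 0.50 over animals. For Cartpt the SD over libraries was 0.24 beside 0.26, for Gal 0.14 beside 0.22, for Nts 0.15 beside 0.17, for Ghrh 0.14 beside 0.14, for Gnrh1 0.19 beside 0.16 and for the Agrp gene row 0.08 beside 0.10. Over the libraries of animal 4 the SD of the Agrp gene row was 0.16, above the 0.10 over animals and beside an SD of strain means of 0.17.

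Over the same 12 libraries the r with Avp was 0.89 for Oxt, 0.94 for Hcrt and 0.04 for Pmch. These libraries share an animal, so the values are descriptions with no test. Baiap3 ran from 8.51 to 10.07 over them (r with Avp of 0.91), Nnat from 12.61 to 13.16 (0.90) and Celf6 from 8.72 to 9.15 (0.75). The hypothalamic index of the 12 libraries ran from -0.34 to 1.85 with an SD of 0.55, against 1 between animals by construction, and its r was 0.78 with Avp and with Hcrt, 0.74 with Oxt, 0.77 with Cartpt and 0.22 with Pmch. Animal 4 of SHR/OlaIpcv had 6 libraries, with SDs of 0.48 for Oxt, 0.36 for Avp, 0.19 for Hcrt and 0.20 for Pmch, and r with Avp of 0.86 for Oxt, 0.93 for Hcrt and 0.34 for Pmch. The co-variation of Avp, Oxt and Hcrt was therefore present between libraries of an animal, while that of Avp with Pmch was lower there (0.04 and 0.34) than between animals (0.54). The difference was not tested, and the part of library preparation and batch in it was not tested.

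The third comparison asked how much of the variation of each gene lay between strains, by the R2 that the paper uses to estimate broad-sense heritability. R2 is the part of the sum of squares that lies between strains, and limma's F-test over strains was used at 5% FDR over all 20859 genes. A strain effect was called for 2 of the 10 members, against 37.3% of all genes. The Agrp gene row had an R2 of 0.82 (adjusted p = 8.71e-21), a value that describes the non-coding transcript. Nts had an R2 of 0.53 (adjusted p = 0.00289), and lost the call without animal 1 (adjusted p = 0.285) or animal 2 (adjusted p = 0.218) of each strain. The others were not called: R2 was 0.46 for Cartpt (adjusted p = 0.0590), 0.45 for Gal (adjusted p = 0.0936), 0.45 for Ghrh (adjusted p = 0.132), 0.44 for Oxt (adjusted p = 0.105), 0.39 for Gnrh1 (adjusted p = 0.405), 0.37 for Avp (adjusted p = 0.474), 0.31 for Hcrt (adjusted p = 0.904) and 0.30 for Pmch (adjusted p = 0.935). The median R2 of all genes was 0.45, and that of the members 0.44. With 197 animals in 74 strains a large part of R2 arises without any strain effect. The paper sets its R2 beside values from permuted strain labels, which was not done here. The R2 of genes that were not called, such as Avp, Hcrt and Pmch, is therefore not read as heritable variation. The coding transcript of Agrp had an R2 of 0.40 (adjusted p = 0.465) and was not called. In the transcript table only Nts was called (R2 = 0.53, adjusted p = 0.0182), against 13.9% of transcripts.

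Here and below the highest and lowest strains are those among strains with 2 or more animals, and the 5 strains of 1 animal are left out of the order. Beyond the highest strain named for a member stood BUF/MnaMcwi for Nts (7.96), Pmch (10.19), Ghrh (2.52) and the Agrp gene row (8.66), and LEXF9/Stm for Pmch (10.17), Ghrh (2.47) and Gnrh1 (2.09). Beyond the lowest stood LE/Stm for Nts (7.29), Gal (6.24) and Gnrh1 (1.53), LEXF9/Stm (7.30) and FXLE13/Stm (7.32) for Nts, and LEXF2B/Stm for Pmch (9.11). Other single animals, such as LE/Stm for Cartpt (7.89), lay between the strains named. Nts, the member with a called strain effect on its own RNA, had its highest means in WKY/NCrl (7.87, 7.92 and 7.98), HXB25/Ipcv (7.86, 7.95 and 7.92) and HXB24/Ipcv (7.95, 7.94 and 7.83). The lowest means were those of F344/NCrl (7.33 and 7.43), BXH3/Cub (7.44, 7.44 and 7.28) and LEXF1C/Stm (7.29 and 7.49). The 9 animals of the highest 3 strains lay above the 7 of the lowest 3, but the strains were chosen by these means. No single strain of Nts was called, with the lowest adjusted p for WKY/NCrl (deviation from the mean of strains 0.30 ± 0.10, adjusted p = 0.110).

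To compare strains at an equal value of the index, the index was added to the fit. The index varied between libraries of an animal, and some genes of other regions rose with it. An equal index is therefore not known to be an equal hypothalamic content. A strain effect was then called for 4 members, against 38.3% of all genes outside the index. R2 given the index is the part of the sum of squares left by the index that lies between strains. It is therefore not on the scale of the R2 above. Oxt had an R2 given the index of 0.57 (adjusted p = 2.46e-04) and Gal of 0.52 (adjusted p = 0.00734), and neither was called without the index. Nts had 0.54 (adjusted p = 0.00216) and the Agrp gene row 0.82 (adjusted p = 1.59e-20). Avp had 0.44 (adjusted p = 0.114), Cartpt 0.45 (adjusted p = 0.108), Hcrt 0.35 (adjusted p = 0.687) and Pmch 0.36 (adjusted p = 0.583). Ghrh had 0.45 (adjusted p = 0.134) and Gnrh1 0.39 (adjusted p = 0.405). Among coding transcripts, 3 members were called, Oxt (R2 = 0.53, adjusted p = 0.00954), Gal (0.52, adjusted p = 0.0240) and Nts (0.53, adjusted p = 0.0125), against 14.5% of transcripts. With the batch characteristic as a covariate, in the 120 animals of 42 strains that could be linked through batches, Oxt (adjusted p = 0.0533) and Gal (adjusted p = 0.507) lost their calls, where 47.3% of all genes were called. Without animal 2 of each strain Oxt (adjusted p = 0.0970), Gal (0.0581) and Nts (0.184) were not called, and without animal 1 Gal (0.294) and Nts (0.300) were not. The index itself, without a covariate, had an R2 over strains of 0.35, beside a median of 0.45 over all genes.

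The strains at the extremes of Oxt were GK/FarMcwi (7.47, 7.58 and 7.72), LEXF8A/Stm (7.86 and 7.14) and LEXF11/Stm (7.87 and 7.01) at the high end. At the low end were HXB20/Ipcv (5.94, 5.44 and 6.02), BXH5/Cub (6.17, 6.18 and 5.53) and M520/N (6.08, 5.31 and 6.54). At equal index, GK/FarMcwi stayed the highest (7.75), and LEXF11/Stm (7.41) and LEXF1C/Stm (7.40) came next, with BXH5/Cub (5.98), M520/N (6.02) and HXB20/Ipcv (6.03) lowest. GK/FarMcwi, a strain used as a model of type 2 diabetes, thus had all 3 animals above the highest animal of each of the lowest 3 strains, which were chosen by their means. Its deviation of 0.91 ± 0.33 was not called (adjusted p = 0.178).

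**Figure D5:**
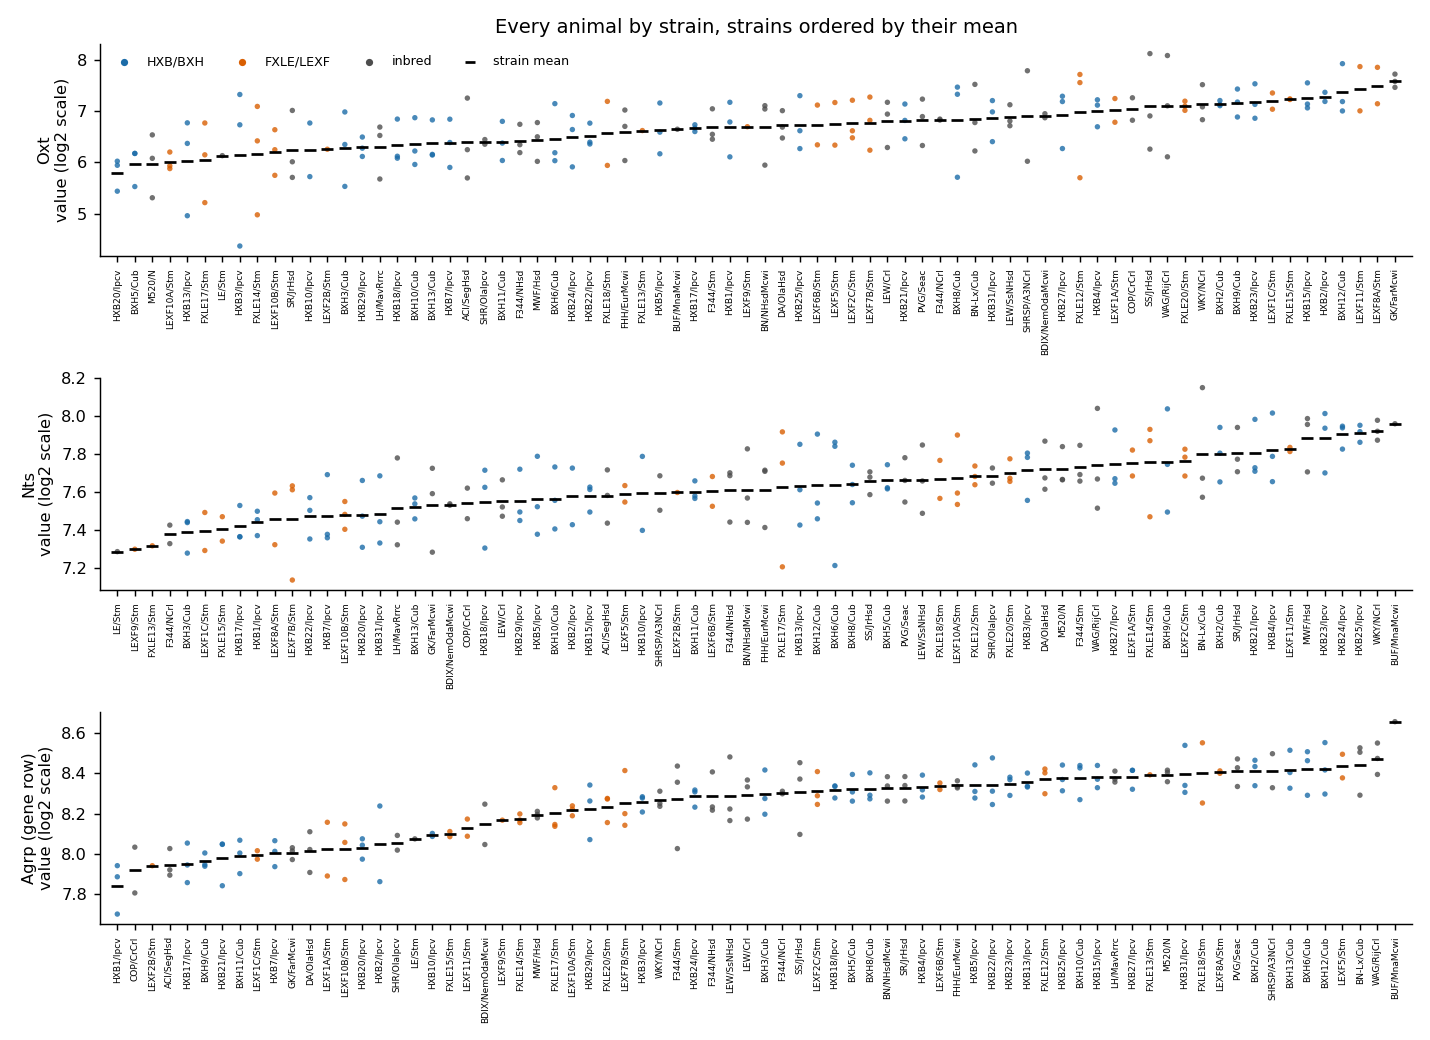
Deposited log2 value (vertical axes) of every animal for Oxt, Nts and the Agrp gene row, with strains ordered by their mean (black dashes) and animals coloured by panel. Animals of a strain lay close together for the Agrp gene row (within-strain SD 0.10, SD of strain means 0.17) and far apart for Oxt (0.58 and 0.41).

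For Avp the highest strain means were those of HXB2/Ipcv (8.13 and 7.81), HXB1/Ipcv (7.97, 8.22 and 7.31) and LEXF11/Stm (7.80 and 7.82). The lowest were SR/JrHsd (6.13, 7.00 and 6.72), HXB10/Ipcv (7.18 and 6.08) and FXLE17/Stm (7.04, 7.08 and 5.79). In each of these low strains at least 1 animal stood near 7.00 or above it, and no strain was called. SR/JrHsd also had the lowest hypothalamic index of all strains with 2 or more animals, 1.73 SDs below the mean, and at equal index it was no longer among the lowest 3, which were LH/MavRrrc (6.51), HXB10/Ipcv (6.62) and FXLE17/Stm (6.70). BDIX/NemOdaMcwi, with an index 1.05 SDs below the mean, had the highest Avp at equal index, 8.00 against 7.67 without the adjustment.

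Hcrt was highest in FXLE15/Stm (5.66 and 5.51), LEXF7B/Stm (5.53, 5.13 and 5.80) and FXLE20/Stm (5.39, 5.47 and 5.46), and lowest in FXLE17/Stm (4.44, 4.78 and 4.40), SR/JrHsd (4.64, 4.71 and 4.38) and HXB20/Ipcv (4.75, 4.21 and 4.88). Pmch was highest in SS/JrHsd (10.56, 10.18 and 9.57), HXB10/Ipcv (9.96 and 10.19) and FXLE20/Stm (9.76, 9.84 and 10.55), and lowest in HXB13/Ipcv (9.71, 8.31 and 9.32), BXH13/Cub (8.46, 9.63 and 9.47) and HXB3/Ipcv (7.98, 10.13 and 9.54). A single animal set the low place of HXB3/Ipcv, whose other animals stood at 10.13 and 9.54, around the median of 9.79. Cartpt was highest in SHRSP/A3NCrl (8.95 and 8.56), SS/JrHsd (9.11, 8.76 and 8.24) and LEXF7B/Stm (8.85, 8.38 and 8.77). It was lowest in SR/JrHsd (7.51, 8.23 and 7.84), BN/NHsdMcwi (8.00, 8.17 and 7.53) and HXB27/Ipcv (7.82, 7.90 and 8.26). SS/JrHsd and SR/JrHsd are the Dahl salt-sensitive and salt-resistant strains. Their mean index was the highest (1.32 SDs above the mean) and the lowest of all strains with 2 or more animals. Over single animals the index ran from -0.85 to 3.31 in SS/JrHsd and from -2.22 to -1.03 in SR/JrHsd. The lowest SS/JrHsd animal thus stood close to the highest SR/JrHsd animal. The R2 of the index over strains was 0.35, below the median of 0.45 over all genes, and differences of the index between strains were not tested.

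Gal was highest in FXLE20/Stm (6.98, 6.91 and 7.09), SS/JrHsd (7.37, 7.02 and 6.33) and BXH12/Cub (7.00, 6.98 and 6.72), and lowest in LEXF7B/Stm (6.25, 6.27 and 6.26), LH/MavRrrc (6.26, 6.32 and 6.35) and HXB27/Ipcv (6.11, 6.34 and 6.55). LEXF7B/Stm, the lowest of these strains for Gal, was among the highest for Hcrt and Cartpt. The animals of FXLE20/Stm all lay above those of LEXF7B/Stm and LH/MavRrrc. Ghrh was highest in SS/JrHsd (2.63, 2.47 and 2.27) and lowest in LEXF1C/Stm (2.06 and 2.01), and Gnrh1 was highest in HXB25/Ipcv (2.22, 1.77 and 1.92) and lowest in HXB18/Ipcv (1.48, 1.66 and 1.52). For Ghrh, LEW/Crl (2.46, 2.53 and 2.29) and HXB2/Ipcv (2.35 and 2.45) followed at the high end, and HXB20/Ipcv (1.88, 2.01 and 2.27) and COP/CrCrl (2.10 and 2.07) at the low end. For Gnrh1, ACI/SegHsd (1.79, 1.90 and 2.17) and HXB21/Ipcv (1.98, 1.84 and 2.03) followed at the high end, and FHH/EurMcwi (1.61, 1.58 and 1.60) and HXB13/Ipcv (1.58, 1.55 and 1.73) at the low end.

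Each strain was tested against the mean of all strain means, with adjustment over all genes and strains together. Among the members 15 deviations were called, all of the Agrp gene row, against 1.20% of 1543566 deviations over all genes. Of these, 13 were negative. HXB1/Ipcv was the lowest (7.94, 7.89 and 7.70, deviation -0.40 ± 0.06, adjusted p = 1.86e-07), followed by COP/CrCrl (7.81 and 8.03, deviation -0.32, adjusted p = 0.00231) and ACI/SegHsd (7.90, 7.92 and 8.03, deviation -0.29, adjusted p = 3.55e-04). Also negative were HXB17/Ipcv (8.05, 7.86 and 7.95), BXH9/Cub (7.94, 8.01 and 7.95), HXB21/Ipcv (7.84, 8.05 and 8.05), BXH11/Cub (8.00, 8.07 and 7.90), HXB7/Ipcv (8.01, 7.94 and 8.07), GK/FarMcwi (8.02, 8.03 and 7.97), DA/OlaHsd (8.11, 8.02 and 7.91), HXB20/Ipcv (8.08, 8.04 and 7.97), LEXF10B/Stm (8.06, 8.15 and 7.87) and LEXF1C/Stm (8.02 and 7.97). The positive ones were WAG/RijCrl (8.55, 8.47 and 8.39, deviation 0.23, adjusted p = 0.0131) and BUF/MnaMcwi (8.66), which had 1 animal and is taken to vary like the other strains. The next highest strains with 2 or more animals, BN-Lx/Cub (8.53, 8.29 and 8.50) and LEXF5/Stm (8.49 and 8.38), were not called. Without HXB17/Ipcv 2 the count was 14, without replicate 1, 2 or 3 it was 3, 5 or 11, and with the batch of the title as a covariate, in fewer strains, it was 6. For the coding transcript of Agrp no strain was called. XR_005496618.1 had no entry in the RefSeq table of gene names used here.

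The progenitors of the HXB/BXH panel were compared in the same fit. BN-Lx/Cub (3 animals) and SHR/OlaIpcv (2 animals) differed for 1 member, the Agrp gene row, against 4.51% of all genes. It stood at 8.53, 8.29 and 8.50 in BN-Lx/Cub and at 8.09 and 8.02 in SHR/OlaIpcv, which gave 0.39 ± 0.09 (adjusted p = 0.00292). Without animal 1 of each strain it was 0.38 ± 0.14 and not called (adjusted p = 0.304). The coding transcript had a difference of -1.99 ± 1.05 in the other direction and was not called (adjusted p = 0.644). Avp was at 6.59, 8.40 and 6.70 in BN-Lx/Cub and at 7.07 and 7.14 in SHR/OlaIpcv, where the SHR/OlaIpcv values are means of 12 and 6 libraries. Oxt was at 6.22, 7.52 and 6.78 against 6.45 and 6.35. The single BN-Lx/Cub animal that was high for Avp and Oxt was also the highest for Hcrt (5.88, against 4.39 and 4.69) and Pmch (10.32, against 9.29 and 9.76).

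SHR/OlaIpcv, the spontaneously hypertensive rat, was compared with WKY/NCrl, its normotensive control strain. The paper states that brains of HXB/BXH and its progenitors came from a colony in Prague and were stored in liquid nitrogen. Its other inbred strains came from Charles River or Envigo, and their brains were placed in the preservative RNAlater. Strain cannot be told apart from source, storage and, in part, sequencing batch in this contrast. No member was called by limma, against 0.825% of all genes. At an unadjusted p below 0.05 there was 1 member, the Agrp gene row (8.09 and 8.02 against 8.31, 8.25 and 8.24, p = 0.0211). The coding transcript of Agrp had a difference of 1.14 ± 1.05 in the other direction and was not called. Vasopressin and oxytocin act on blood pressure and water balance. Oxt was at 6.45 and 6.35 in SHR/OlaIpcv and at 6.83, 7.52 and 7.08 in WKY/NCrl, which gave -0.74 ± 0.52 (adjusted p = 0.778). Avp was at 7.07 and 7.14 against 7.18, 7.82 and 7.27, with an estimate of -0.32 ± 0.46 (adjusted p = 0.915). Nts was at 7.65 and 7.73 against 7.87, 7.92 and 7.98, with an estimate of -0.24 ± 0.15 (adjusted p = 0.751). In the earlier v5 table of Ensembl genes, which holds other libraries in part, the differences of Oxt (-0.997, adjusted p = 0.0131) and Nts (-0.414, adjusted p = 0.0127) were called, where 24.6% of all genes were called. The unadjusted p of limma in the RefSeq table was 0.152 for Oxt and 0.125 for Nts.

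The panels were compared on the means of their strains. For the strains that the paper describes, source and storage of the brains differed between HXB/BXH and the inbred strains other than its progenitors. They cannot be told apart from the panel in that contrast. No member was called in any of the 3 contrasts, against 0.00479% of genes between HXB/BXH and FXLE/LEXF and 0 genes in each of the other contrasts. At an unadjusted p below 0.05 limma found 1116, 499 and 2130 genes, and no member among them. Mean Oxt was 6.62 ± 0.42 (SD, n = 30) in HXB/BXH, 6.74 ± 0.45 (SD, n = 19) in FXLE/LEXF and 6.70 ± 0.36 (SD, n = 25) in the inbred strains. Mean Avp was 7.21 ± 0.33, 7.30 ± 0.34 and 7.28 ± 0.28 in the same order. The lowest unadjusted p among the members was 0.0854, for Cartpt in FXLE/LEXF (8.27 ± 0.21) against the inbred strains (8.38 ± 0.25). The slopes on the index differed between panels for 0.120% of genes and for no member in limma. At an unadjusted p below 0.05 there was 1 member, Pmch, with 0.46 in HXB/BXH, 0.33 in FXLE/LEXF and 0.26 in the inbred strains (unadjusted p = 0.0116, adjusted p = 0.264).

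Other peptides, receptors and processing enzymes were described by the same fits. Of 25 other neuropeptide genes 19 had a row, and 5 rose with the index: Npvf (0.26 ± 0.02, adjusted p = 6.39e-19), which encodes an RFamide peptide made in the dorsomedial hypothalamus, Pomc (0.19 ± 0.03, adjusted p = 7.55e-07), the arcuate melanocortin precursor, Trh (0.09 ± 0.03, adjusted p = 0.0126), thyrotropin-releasing hormone, Rln3 (0.08 ± 0.02, adjusted p = 0.00968), a relaxin peptide, and Ucn3 (0.04 ± 0.01, adjusted p = 0.00506), a urocortin. The median slope of all 19 was 0.02, against 0.16 for the 10 members. A strain effect was called for 8 of the 19, beside the 37.3% of all genes, namely Pdyn, Penk, Vip, Adcyap1, Grp, Cck, Tac1 and Crh, with R2 from 0.48 for Crh to 0.66 for Pdyn. None of these 8 was called for a slope. Npy (slope -0.01, adjusted p = 0.659) and Sst (0.01, adjusted p = 0.863), which are abundant in cortical interneurons, were called in neither test.

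Of 15 receptor genes for the members' peptides 14 had a row, and 7 rose with the index. They were Hcrtr1 (0.10 ± 0.02, adjusted p = 9.89e-04) and Hcrtr2 (0.06 ± 0.01, adjusted p = 0.00155), the orexin receptors, Ntsr1 (0.09 ± 0.02, adjusted p = 9.06e-05) and Ntsr2 (0.04 ± 0.01, adjusted p = 0.0390), the neurotensin receptors, Galr1 (0.09 ± 0.01, adjusted p = 1.38e-06), a galanin receptor, Mc3r (0.07 ± 0.01, adjusted p = 6.29e-06), a melanocortin receptor, and Oxtr (0.05 ± 0.01, adjusted p = 0.0186), the oxytocin receptor. A strain effect was called for 3 of the 14, beside 37.3% of all genes, namely Mc4r (R2 = 0.53, adjusted p = 0.00283), Ghrhr (0.52, adjusted p = 0.00979) and Ntsr2 (0.49, adjusted p = 0.0223). Of 10 genes for the processing and packing of peptides, Scg2 (0.07 ± 0.01, adjusted p = 3.47e-07), a secretogranin, and Vgf (0.07 ± 0.02, adjusted p = 0.0390) rose with the index, and Pcsk1, a prohormone convertase (R2 = 0.52, adjusted p = 0.00656), Pam, the amidating enzyme (0.50, adjusted p = 0.0328), and Scg5 (0.49, adjusted p = 0.0407) had a strain effect, 3 of 10 beside 37.3% of all genes. Neither Cpe nor Pcsk2, which act on most of these precursors, was called in either test.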

How the data were processed

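The deposited log2 values were made by the authors before deposit. The study's methods name trimming with Cutadapt, removal of ribosomal reads with Bowtie 2, alignment with HISAT2, RSEM estimates, removal of 1 factor of unwanted variation and a regularized log transformation. For the RefSeq tables used here (v7.1) these steps, the genome build and the annotation are not given in the sources used here, and the scale was read from the values. Columns were matched to labels by the library name in the sample descriptions, and otherwise by the strain, replicate number and batch in the column name. The LEXF9/Stm column, matched by its description, names another batch than its sample, of the same replicate number. The FXLE12/Stm columns name other replicate numbers than the titles, which were used. The 73 spike-in rows were left out. Libraries with the same strain and replicate number were averaged to 1 animal. All tests were limma 3.58.1 fits in R 4.3.3 to the whole table with Benjamini-Hochberg adjustment at 5%. Permutation tests were two-sided. They were made within strains for values of animals and over all strains for strain means. Nothing in the labels says more of the animals' independence than the replicate number. The fits were tested on simulated data. The members, the lists and the index genes were chosen with earlier results of these data known. Named genes were the members, the 3 most like each within strains and over strain means, the 3 highest and lowest strains, every called strain, and called genes of the lists. A gene chosen by this rule is not reported here. Alternatives were batch covariates, quantile normalization, a filter on low values, Ensembl tables (v5, v6), animals left out and, added after seeing the data, the transcript table, single panels and HXB17/Ipcv 2 left out.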

Additional observations from a re-analysis of the deposited data

How the results depend on the processing

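Counts of members called are given in the order strain effect, slope on the index, strain effect given the index and strain deviations (2, 8, 4 and 15 in the report), then the BN-Lx/Cub minus SHR/OlaIpcv contrast (1), the SHR/OlaIpcv minus WKY/NCrl contrast (0) and pairs (20). With quantile normalization, a trended prior, the index from other peptides, and without the doubtful libraries, each count that could be had stayed within 1.5 times, but single calls changed. With quantile normalization Cartpt gained the strain effect without and with the index (adjusted p = 0.0443 and 0.0334). With the index from other peptides Nts gained a slope (0.06, adjusted p = 4.93e-04), where 48.9% of all genes had one, and given that index Cartpt gained a strain effect (adjusted p = 0.00411) and Gal lost it (adjusted p = 0.0764). With the batch characteristic the third count was 2, while the share of all genes went from 38.3% to 47.3%. With the batch of the title (90 animals of 31 strains) the fourth was 6, while the share of all deviations went from 1.20% to 1.90%. Among genes above the median level Pmch and Cartpt alone were left, with counts of 0, 2, 0, 0 and 0, and 1 pair (34.3%, 7.68%, 35.3%, 0.623% and 4.50% of all genes or deviations). In the v6 table of Ensembl genes the strain effect was called for 1, beside 32.3% of all genes, and 0 deviations and 0 members of the BN-Lx/Cub contrast were called, beside 1.28% and 2.19%. In the v5 table the strain effect was called for 5 (Avp, Oxt, Cartpt, Ghrh and Nts), beside 63.6% of all genes, 0 in the BN-Lx/Cub contrast, beside 4.37%, and 2 in the WKY/NCrl contrast, beside 24.6% of all genes. In the transcript table these were 1 strain effect, 0 deviations and 0 in the BN-Lx/Cub contrast, beside 13.9%, 0.402% and 0.789% of transcripts. Within FXLE/LEXF alone the strain effect was called for 1 and the slope for 4, beside 4.61% and 0.0288% of all genes, and within the inbred strains the slope for 5, beside 0.273%. The cause was not tested, but fewer animals entered the panel and batch fits.

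Leaving out replicate 1, 2 or 3 gave a strain effect for 1 to 3 members, slopes for 6 to 7, strain effects given the index for 2 to 4, 3 to 11 deviations, 0 to 1 in the BN-Lx/Cub contrast and 12 to 17 pairs. The shares of all genes or deviations ran from 14.4% to 29.1%, 0.561% to 4.42%, 14.7% to 30.8%, 0.391% to 0.664% and 0.992% to 6.19%, so fewer genes of any kind were called in the first 4 than with all animals. Among values called in the report or under the alternative, those that changed direction were of Agrp and Gnrh1. BN-Lx/Cub minus SHR/OlaIpcv for Agrp was -0.30 in v6, -0.0102 in v5 and -1.99 in the transcript table. The slopes of Agrp on Avp, Oxt and Hcrt became 0.17, 0.17 and 0.21 in v6 and 0.46, 0.42 and 0.58 in the transcript table. In v6, Gnrh1 had a mean of 5.94, against 1.78 in RefSeq, with a slope on the index of -0.0706 and slopes on Avp, Oxt, Hcrt and Gal of -0.17, -0.14, -0.22 and -0.43. In v5 the slopes on the index of Oxt (0.23), Hcrt (0.15) and Ghrh (0.025) were over 1.5 times lower, and that of Avp was not called within the inbred strains alone (0.27, adjusted p = 0.0647).

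With the replicate number as a block all counts stayed at 2, 8, 4, 15, 1, 0 and 20. The numbers do not pair animals of different strains: over 5000 genes and 53 strains the mean r of within-strain deviations was 0.01 for the same number and -0.00 for others. The planned table of reconstructed genes was not run, because its features merge neighbouring genes. Precision is limited by at most 3 animals a strain, and for Ghrh and Gnrh1 by their low level.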

Other observations

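Over the 12 libraries of SHR/OlaIpcv animal 1, Ghrh ran from 2.03 to 2.50 and Gnrh1 from 1.59 to 2.17, ranges that cover most of those of the strain means, strains of 1 animal included (2.03 to 2.52 and 1.53 to 2.09). Gal ran from 6.42 to 6.91, Nts from 7.33 to 7.84 and Cartpt from 8.02 to 8.98 over the same libraries. For Pmch the range was 9.19 to 10.11. Over the 6 libraries of animal 4, the r with Avp was 0.90 for Gal and 0.57 for Cartpt, against 0.28 and 0.67 in animal 1, and -0.73 for Gnrh1 against 0.59. These are values of 2 animals with no test.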
